A study of Drosophila melanogaster with 6 samples.

Results

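The genes described here are 10 genes of Drosophila melanogaster that control the step from G1 to S phase of the cell cycle. They were taken by gene name from tables of 23932 genes: the G1 cyclin genes CycD and CycE, the kinase genes Cdk4 and Cdk2, the Cdk inhibitor gene dap, the E2F genes E2f1 and Dp, the Rb gene Rbf, and the ribonucleotide reductase genes RnrL and RnrS. All 10 were in every table and all 10 passed the filter on low counts, which left 8302 genes. RNA came from S2R+ cells, an established line of late embryonic origin per the labels, grown in Schneider's medium with fetal bovine serum. The control group, dsLacZ, holds 3 libraries of cells given double-stranded RNA against the bacterial lacZ gene, and the other group, labelled dsFib, holds 3 libraries labelled as cells given double-stranded RNA against Fibrillarin, the enzyme that methylates ribosomal RNA together with box C/D snoRNAs. By the labels, both groups thus received double-stranded RNA, with no dose or duration stated in the labels. Total RNA was depleted of ribosomal RNA and sequenced with TGIRT-seq, in which a thermostable group II intron reverse transcriptase copies structured small RNAs as well as mRNA. Separate cultures are not named for the replicates in the labels; each p-value therefore reflects how far these libraries scatter, and that scatter could be technical.

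The G1 to S step is run by a small circuit. Cyclin D with Cdk4 and cyclin E with Cdk2 phosphorylate the Rb protein Rbf, which otherwise binds and silences the E2f1-Dp transcription factor. Once released, E2f1-Dp transcribes genes needed for DNA replication, among them CycE, the ribonucleotide reductase genes and genes of the MCM helicase, while Dacapo, the product of dap and a relative of vertebrate p21 and p27, holds cyclin E-Cdk2 in check. Much of the circuit is set by protein turnover and phosphorylation, which mRNA levels do not show.

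Library totals ran from 11695250 to 15172052 counts. The targeted gene went against its label: Fib was at 213.9, 257.4 and 227.4 CPM (counts relative to library size, scaled by TMM) in dsLacZ replicates 1, 2 and 3 and at 1312, 954.9 and 994.3 CPM in the libraries labelled dsFib, a 4.67-fold higher mean. Each comparison is therefore worded by the library label, and whether the labels match the treatments was not tested, so the direction of every change holds for the labels as given. Library dsLacZ replicate 2 stood apart, with 18.3% of its counts in nuclear tRNA genes against 10.8% to 15.3% in the other 5 libraries and the lowest share of protein-coding counts, 50.1% against 55.3% to 63.2%. Of 8 plasmatocyte markers, which this blood-cell-like line is known to express in part, srp, Pxn, ush, crq and Hml were detected at mean levels of 6.16 to 280.2 CPM, while NimC1 was at 0 in dsLacZ and Sr-CI and eater were under 1 CPM in both groups. Summed over the 8 genes, the level was 380.8 to 391.0 CPM in dsLacZ and 345.1 to 383.3 CPM in the libraries labelled dsFib, most of it crq, at 280.2 and 242.03 CPM on average. Of the 6 markers tested, 5 had positive estimates, all but crq, and the median over the 6 was 0.20 on the log2 scale. The estimate of crq was -0.21, with its groups separated in the lower direction. Hml had 6.16 ± 2.46 and 11.5 ± 2.34 CPM (SD, n = 3 each) with separated groups (log2 fold change 0.89, SE 0.32, edgeR adjusted p = 0.224). The part of these markers in the members' values was not tested. The fz gene, a Wnt receptor gene by which S2R+ is told from the S2 line, was present at 19.6 ± 3.31 and 32.8 ± 2.40 CPM (SD, n = 3 each; edgeR adjusted p = 0.0624, DESeq2 adjusted p = 0.00691). Among markers of other cell types, 3 of 4 neuron markers, 4 of 4 muscle markers and 2 of 4 germline markers averaged under 2 CPM in both groups; elav was at 28.04, aub at 107.9 and bam at 8.69 CPM in dsLacZ.

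No member passed the test between the groups. Of the 10 genes, 0 rose and 0 fell (edgeR, quasi-likelihood test with Benjamini-Hochberg adjustment over 8302 genes, n = 3 per group). Of all genes tested 0.903% passed, 44 genes or 0.530% in the higher direction and 31 or 0.373% in the lower. With scaling by total counts alone that split was 5 higher and 26 lower. Before adjustment, edgeR put 3 members lower and 0 higher at a p of 0.05, where 8.26% of all genes tested were lower and 7.67% higher. That count of 3 was 1 with total counts alone, with DESeq2 and with the replicate number as a block. The share of all genes tested at that p, in either direction, was 12.9%, 12.5% and 11.3% there, against 15.9% in the main fit. The count of members was 0 without dsFib replicate 1, where that share was 9.72%. It was 1 without dsLacZ replicate 1, dsLacZ replicate 3 or dsFib replicate 2, where the share was 17.4%, 11.9% and 11.6%. DESeq2 and limma-voom also called 0 of the 10, where they called 3.05% and 0.807% of their genes.

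The estimates leaned toward lower levels. For 8 of the 10 members the log2 fold change lay below 0, as it did for 51.7% of all genes tested, and their median was -0.19 against -0.01 for all genes tested. Without dsLacZ replicate 1 the median of the members was -0.12, with 7 of 10 below 0. For 4 members, CycE, Cdk2, Rbf and dap, all 3 libraries labelled dsFib lay below all 3 controls, and for 0 members above, where 12.1% of all genes tested were separated in the lower direction and 11.0% in the higher. With scaling by total counts alone, 2 members were lower with no overlap, Cdk2 and Cdk4, and the separation of CycE, Rbf and dap was lost. Under that scaling 13.1% of all genes tested were separated in the lower direction and 7.14% in the higher. In the edgeR fit of all 6 libraries with TMM scaling, the 95% interval excluded a 2-fold change in either direction for all 10 genes. It excluded a 1.5-fold change for 7 of them, the others being Cdk2, Dp and RnrL. These bounds are stated for that fit alone. Dp had -0.49 (SE 0.24) on the log2 scale without dsFib replicate 2 and -0.40 (SE 0.28) with total counts alone. The measured RNA is that of whole cultures, so the share of cells at a stage of the cycle and the amount of RNA per cell cannot be told apart.

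**Figure D1:**
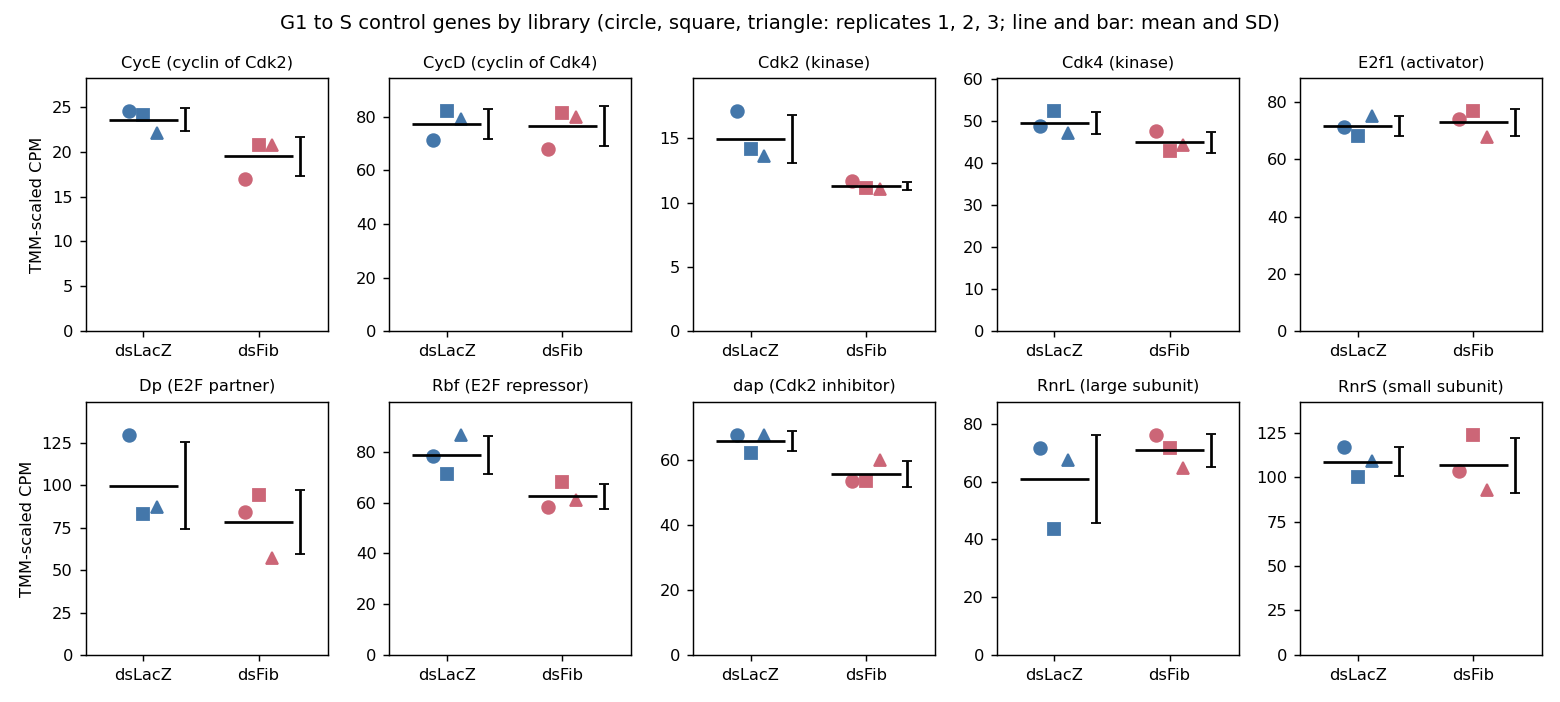
TMM-scaled CPM (vertical axis, from 0) of each of the 10 genes in the 3 dsLacZ libraries (blue) and the 3 libraries labelled dsFib (red), with the mean (line) and SD (bar) of each group. CycE, Cdk2, Rbf and dap show groups that do not overlap, and the longest SD bar is that of Dp in dsLacZ, at 25.8 CPM.

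Cyclin D and Cdk4 form the kinase that acts first on Rbf, and in the fly it also drives cell growth. CycD (FBgn0010315; X, 15906822 to 15909676, minus strand, dm6) was at 71.1, 81.9 and 78.9 CPM in dsLacZ replicates 1, 2 and 3 and at 67.9, 81.4 and 79.9 CPM in those labelled dsFib. The groups overlapped almost fully, and replicate 1 was the lowest library of each. Its log2 fold change was -0.02 (SE 0.11, interval -0.26 to 0.23, edgeR adjusted p = 0.963), and the interval runs from 0.836-fold to 1.17-fold. Cdk4 (FBgn0016131; 2R, 16579470 to 16585448, plus strand) was at 48.8, 52.2 and 47.2 CPM in dsLacZ and at 47.6, 42.7 and 44.2 CPM in the libraries labelled dsFib. Here 1 library labelled dsFib, replicate 1, lay just above the lowest dsLacZ library, and the other two lay below all 3. Cdk4 had a log2 fold change of -0.14 (SE 0.10, interval -0.36 to 0.08, adjusted p = 0.523).

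Cyclin E and Cdk2 form the kinase that starts replication, and cyclin E is limiting for S phase entry in many fly tissues. CycE (FBgn0010382; 2L, 15727581 to 15748150, minus strand) was at 24.5, 24.1 and 22.1 CPM in dsLacZ and at 17.0, 20.7 and 20.8 CPM in the libraries labelled dsFib. All 3 control libraries lay above the other 3, and the lowest level was that of dsFib replicate 1. The mean was 23.6 ± 1.28 against 19.5 ± 2.17 CPM (SD, n = 3 each), with a log2 fold change of -0.27 (SE 0.13, interval -0.58 to 0.03), which did not pass the edgeR test (adjusted p = 0.369). Without dsFib replicate 1 the estimate was -0.18. Cdk2 (FBgn0004107; 3R, 20735623 to 20738414, plus strand) was at 17.1, 14.2 and 13.6 CPM in dsLacZ and at 11.7, 11.2 and 11.1 CPM in those labelled dsFib. The groups did not overlap, the highest level was that of dsLacZ replicate 1, and the 3 libraries labelled dsFib lay within 0.08 of each other on the log2 scale. Its log2 fold change, -0.41 (SE 0.16, interval -0.76 to -0.05), was the lowest among the 10 members; the unadjusted p was 0.0291 and the edgeR adjusted p = 0.252. Cdk2 was also the member with the fewest reads, 132 to 234 counts a library, so its counting error is the largest.

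The inhibitors of the step were measured in the same way. Rbf (FBgn0015799; X, 797090 to 801479, minus strand), which represses E2F target genes in G1, was at 78.4, 71.3 and 86.5 CPM in dsLacZ and at 58.4, 67.9 and 61.0 CPM in the libraries labelled dsFib. Every library labelled dsFib lay below every control library, and the closest were dsLacZ replicate 2 and dsFib replicate 2. Rbf had a log2 fold change of -0.34 (SE 0.11, interval -0.58 to -0.09), or 1.26-fold lower, with the smallest p among the members (unadjusted p = 0.0129, edgeR adjusted p = 0.192, rank 558 of 8302 genes). A fit that weights each library by its quality, voom with quality weights, gave -0.45 and an adjusted p of 0.0207 for Rbf; that fit called 550 genes in all, and over the 15 alternative settings the adjusted p ran from 0.0207 to 0.525. Dacapo gene dap (FBgn0010316; 2R, 9712321 to 9716256, plus strand) was at 67.5, 62.2 and 67.6 CPM in dsLacZ and at 53.4, 53.4 and 60.1 CPM in the libraries labelled dsFib. These groups did not overlap either, with dsFib replicate 3 the closest to the controls. For dap the log2 fold change was -0.24 (SE 0.09, interval -0.46 to -0.03, unadjusted p = 0.0314, edgeR adjusted p = 0.258). The activating pair CycE and Cdk2 and the inhibitor genes Rbf and dap were thus the 4 separated members, with estimates of 1.18-fold to 1.32-fold lower.

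**Figure D2:**
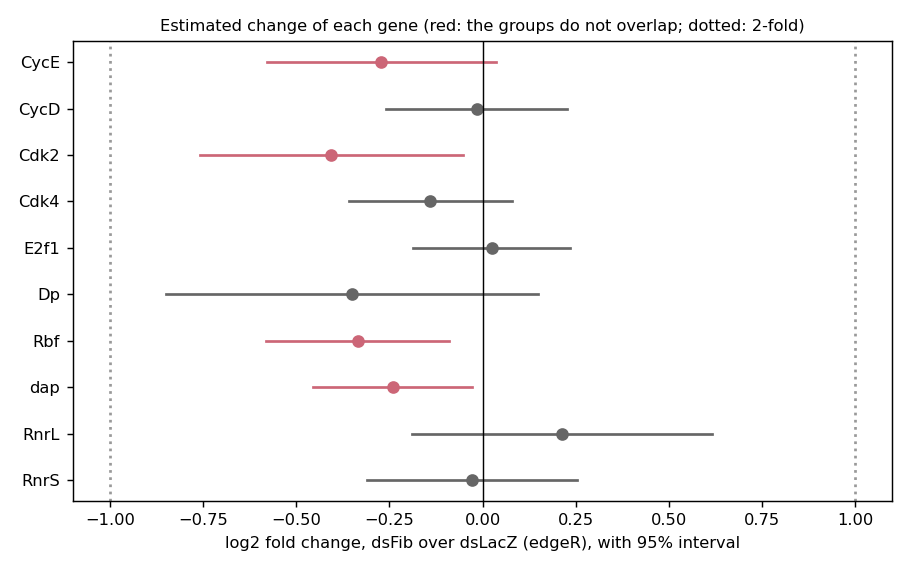
Estimated log2 fold change of each gene (horizontal axis; libraries labelled dsFib over dsLacZ, point) with its 95% interval (line), in red where the groups do not overlap; dotted lines mark a 2-fold change. All 10 intervals lie between the dotted lines, and those of Cdk2, Rbf and dap leave out 0 before adjustment for the number of genes tested.

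E2f1 and Dp encode the partners of the activating transcription factor, and Dp also pairs with the repressor E2f2. E2f1 (FBgn0011766; 3R, 21620304 to 21660871, minus strand) was at 71.4, 68.3 and 75.2 CPM in dsLacZ and at 74.1, 76.8 and 67.8 CPM in the libraries labelled dsFib. It was the steadiest of the 10 genes, with a range over all 6 libraries of 0.18 on the log2 scale, where the median gene tested had 0.63. Its log2 fold change was 0.02 (SE 0.09, interval -0.19 to 0.24, edgeR adjusted p = 0.933), a sign that turned under 4 of 15 alternatives. Dp (FBgn0011763; 2R, 13222433 to 13228202, plus strand) was the most scattered, at 129.6, 82.9 and 87.0 CPM in dsLacZ and at 84.0, 94.0 and 57.0 CPM in the libraries labelled dsFib. Its range was 1.18 on the log2 scale, set by dsLacZ replicate 1 at the top and dsFib replicate 3 at the bottom, while the other 4 libraries lay between 82.9 and 94.0 CPM. Dp's log2 fold change of -0.35 (SE 0.22, interval -0.85 to 0.15, edgeR adjusted p = 0.474) moved to -0.11 without dsLacZ replicate 1 and to -0.17 without dsFib replicate 3. The first of these libraries had the highest share of protein-coding counts, 63.2%, and the second had 55.3%; their part in the scatter of Dp was not tested.

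Ribonucleotide reductase makes deoxyribonucleotides for DNA synthesis from a large catalytic subunit, RnrL, and a small subunit, RnrS, that carries its radical. RnrL (FBgn0011703; 2L, 10325026 to 10327943, minus strand) was at 71.8, 43.5 and 67.6 CPM in dsLacZ and at 76.1, 71.5 and 64.8 CPM in those labelled dsFib. The low value was that of dsLacZ replicate 2, the library with 18.3% of its counts in nuclear tRNA, and the other 5 libraries lay between 64.8 and 76.1 CPM. For RnrL the log2 fold change was 0.21 (SE 0.18, interval -0.19 to 0.62, edgeR adjusted p = 0.616), the highest among the members, and 0.02 without dsLacZ replicate 2. RnrS (FBgn0011704; 2R, 11983145 to 11985393, minus strand) was at 117, 100.4 and 109 CPM in dsLacZ and at 104, 124 and 92.9 CPM in those labelled dsFib. The highest and the lowest level both belonged to libraries labelled dsFib, so the control group lay inside the other. RnrS had a log2 fold change of -0.03 (SE 0.12, interval -0.31 to 0.25, edgeR adjusted p = 0.942).

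Levels of different genes were compared per length, in the deposited TPM (a measure of transcripts that corrects for gene length). The length behind the TPM was calculated back from the deposited CPM and TPM. For each member with several annotated transcripts it was shorter than all its annotated exons together, and how it was chosen was not tested. RnrS was the most abundant member in all 6 libraries, at 19.9 to 37.8 TPM, and stood 1.56 to 2.21 times above CycD, the next by mean rank. CycD, at 11.99 to 17.1 TPM, and Dp, at 8.21 to 26.5 TPM, did not differ beyond their spread, with CycD above Dp in 4 of 6 libraries. Cdk4, RnrL and dap followed with overlapping ranges of 8.93 to 14.0, 5.31 to 14.3 and 7.74 to 13.7 TPM, and their order changed from library to library. E2f1 and Rbf traded places, with E2f1 higher in 3 of 6 libraries, at 5.50 to 9.39 and 6.10 to 11.2 TPM. Cdk2 was ninth and CycE the lowest in all 6 libraries, at 3.54 to 7.76 and 1.76 to 3.45 TPM. Among 7035 protein-coding genes tested, mean TPM placed CycE at the 30.4th percentile, Cdk2 at the 47.6th, and the other members from E2f1 at the 61.5th to RnrS at the 89.3rd. In deposited TPM the catalytic kinase mRNA thus exceeded its cyclin mRNA for the E pair, by 1.72 to 2.25 times, and the reverse held for the D pair. The length behind Cdk2's TPM was 1135 nt where its annotated exons span 2299 nt, and for CycE it was 3653 of 5047 nt. The size of the excess in the E pair therefore depends on the lengths used. With counts per kilobase of all annotated exons the ninth and last places were the same, while E2f1 then lay below Rbf in all 6 libraries.

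**Figure D3:**
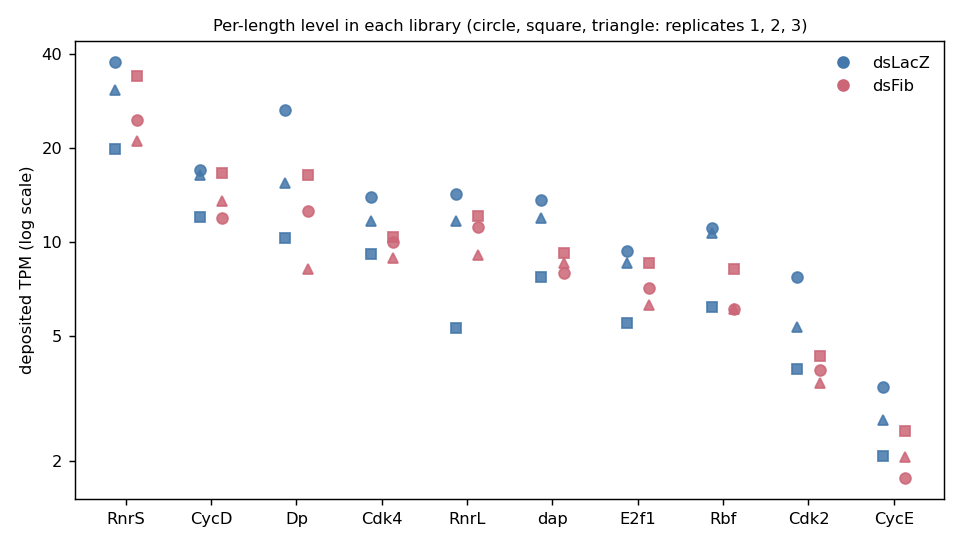
Deposited TPM (log axis) of the 10 genes in each dsLacZ library (blue) and each library labelled dsFib (red), ordered by mean rank. RnrS is highest and Cdk2 and CycE are lowest in every library, and the genes between them overlap.

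Ratios between partner genes within a library do not depend on how libraries are scaled, and 6 were compared. The ratio of E2f1 to Rbf TPM was 0.842, 0.885 and 0.804 in dsLacZ replicates 1, 2 and 3 and 1.17, 1.04 and 1.03 in the libraries labelled dsFib. Every library labelled dsFib thus lay above every control library, with a mean log2 ratio of 0.11 ± 0.10 against -0.25 ± 0.07 (SD, n = 3 each) and a difference of 0.36. The two-sided exact permutation test gave p = 0.1, the smallest this design allows, and 0.6 adjusted over the 6 ratios; the difference was 0.30 to 0.39 with any 1 library left out. In TMM-scaled CPM, given above, E2f1 was nearly the same in all libraries and Rbf was lower in the libraries labelled dsFib. In the deposited TPM the groups overlapped for each gene alone, at 5.50 to 9.39 for E2f1 and 6.10 to 11.2 for Rbf over the 6 libraries. For CycE to Cdk2 the log2 ratio was -1.03 ± 0.13 and -0.91 ± 0.21, for CycD to Cdk4 0.39 ± 0.10 and 0.51 ± 0.22, and for dap to CycE 2.01 ± 0.12 and 2.05 ± 0.14 in dsLacZ and the libraries labelled dsFib, all with overlapping groups (exact permutation p of 0.5, 0.5 and 0.8). E2f1 to Dp, at -1.08 ± 0.36 and -0.71 ± 0.29, and RnrL to RnrS, at -1.56 ± 0.29 and -1.28 ± 0.18, overlapped too (exact permutation p of 0.3 each). Their differences of 0.38 and 0.28 became 0.17 without dsLacZ replicate 1 and 0.11 without dsLacZ replicate 2.

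**Figure D4:**
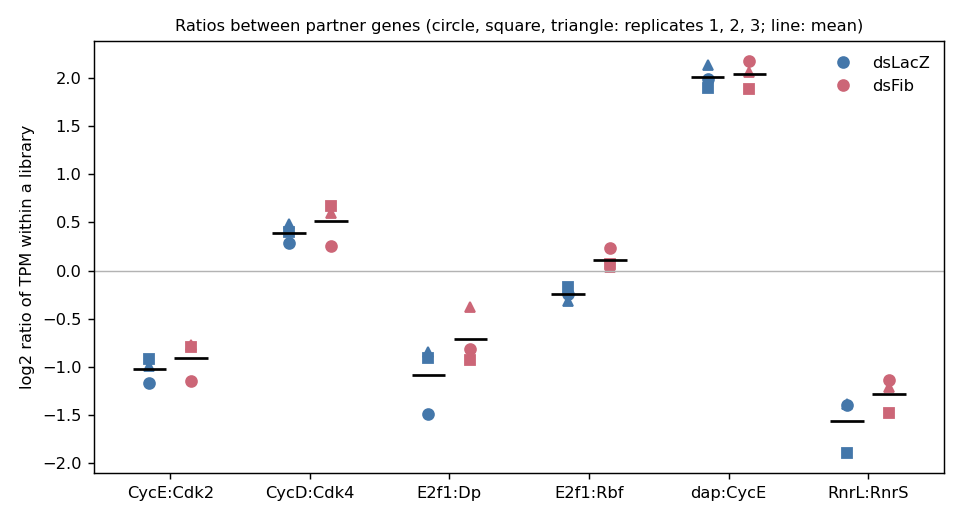
Log2 ratio of TPM between partner genes (vertical axis) in each dsLacZ library (blue) and each library labelled dsFib (red), with group means as lines. The E2f1 to Rbf ratio lies below 0 in the 3 control libraries and above 0 in the other 3, whereas the groups overlap for the other 5 ratios. Where a ratio lies relative to 0 depends on the gene lengths used. Per kilobase of annotated exons, E2f1 lay below Rbf in every library.

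Some members share their locus with other genes, so their counts were set beside those of their neighbours. E2f1 hosts the microRNA genes mir-11 and mir-998 in its introns, and Cdk2 hosts mir-995. In these libraries mir-998 had 98 counts in all, mir-995 had 23 and mir-11 had 0, against 5698 for E2f1 and 1037 for Cdk2, so the small RNAs were too sparse to compare, and mir-998, which passed the filter, had a log2 fold change of 0.03 with an SE of 0.72. No source used here says whether counting used the strand. Cdk2 shares 1010 nt of exon with CG17267 on the opposite strand, which had 2 counts in all 6 libraries together. CycE overlaps 2 antisense noncoding genes with 24 and 2 counts, and Cdk4 overlaps asRNA:CR44375 with 90 counts against its own 3704. E2f1 shares 283 nt of exon with asRNA:CR46055, which had 12 counts. The exons of Dp and Fsn, on opposite strands, share 27 nt. Fsn had 2483 counts against 7021 for Dp, and a log2 fold change of -0.008 (SE 0.11, edgeR adjusted p = 0.982). The part of this overlap in the counts of Dp was not tested. CycD, Rbf, dap, RnrL and RnrS overlap no other annotated gene.

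Genes that act with or on the members were examined as a list of 26 partners and regulators, of which 25 passed the filter. None passed the edgeR test. Before adjustment, edgeR put 2 of the 25, or 8%, lower and 0 higher at a p of 0.05, where 8.26% of all genes tested were lower. Of the estimates 19 were negative, or 76% against 51.7% of all genes tested, with a median log2 fold change of -0.09 against -0.01 for all genes tested; DESeq2 called 1, Rbf2, and limma-voom 0. Rbf2, the second Rb gene of the fly, was at 24.6, 29.0 and 33.6 CPM in dsLacZ and at 18.8, 19.97 and 16.8 CPM in the libraries labelled dsFib, below the controls in all 3. Its log2 fold change was -0.65 (SE 0.15), with an edgeR adjusted p of 0.0885 and a DESeq2 adjusted p of 0.0397. The next by p were mip130, a subunit of the dREAM complex that holds Rb and E2F proteins on DNA, at -0.47 (SE 0.13, edgeR adjusted p = 0.131; past the test without dsLacZ replicate 2), and Caf1-55, a histone-binding subunit of the same complex, at -0.19 (SE 0.09, adjusted p = 0.326). Cks30A, a small Cdk-binding protein gene of low level, had 2.43 ± 0.77 and 4.10 ± 0.72 CPM (SD, n = 3 each) and a log2 fold change of 0.76 (SE 0.35, adjusted p = 0.335). Picked after their values were seen, for their roles, ago, whose F-box protein degrades cyclin E, had -0.06 (SE 0.10), l(2)dtl, which acts in E2f1 destruction during S phase, -0.28 (SE 0.13), and E2f2, the repressive E2F gene, -0.06 (SE 0.12); none passed the edgeR test.

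S phase genes known as E2F targets were listed next, 33 genes of which all passed the filter. Again 0 rose and 0 fell by the edgeR test, and 26 of the 33 had a log2 fold change below 0, with a median of -0.23. At an unadjusted p of 0.05 edgeR put 11 lower and 1 higher, or 33.3% lower where 8.26% of all genes tested were. The 11 became 6 without dsLacZ replicate 1 or dsFib replicate 3, and 7 without dsLacZ replicate 3 or with the replicate number as a block. For 13 genes, or 39.4%, the libraries labelled dsFib all lay below the controls, against 1 above, where 12.1% and 11.0% of all genes tested were so separated. With total counts alone the 13 and 1 became 9 and 1, where 13.1% and 7.14% of all genes tested were so separated. Like the members and the other lists, these genes were chosen with earlier results of these data known, so the shares are no independent test. DESeq2 called 2 lower, Mcm3 and Mcm5, and limma-voom 0. Mcm3, a subunit of the replicative helicase, was at 100.9, 128.1 and 113.6 CPM in dsLacZ and at 65.2, 77.3 and 82.0 CPM in the libraries labelled dsFib, a log2 fold change of -0.61 (SE 0.13, edgeR adjusted p = 0.064, DESeq2 adjusted p = 0.00884). Mcm5 of the same helicase was at 73.7, 84.3 and 88.5 CPM and at 55.7, 59.0 and 59.1 CPM, a log2 fold change of -0.50 (SE 0.10, edgeR adjusted p = 0.0573, DESeq2 adjusted p = 0.019). Both were lower in every library labelled dsFib, and both passed the edgeR test without dsLacZ replicate 1 and without dsLacZ replicate 2, while 0 genes of the list passed without dsLacZ replicate 3, without any 1 library labelled dsFib, or with the replicate block. Mcm7 had -0.44 (SE 0.12, edgeR adjusted p = 0.144) and DNApol-epsilon255, a DNA polymerase epsilon subunit gene, -0.31 (SE 0.10, edgeR adjusted p = 0.187). DNApol-epsilon255 also passed the edgeR test without dsLacZ replicate 2. Of the 7 genes with an estimate above 0, RpA-70, a subunit gene of the single-strand DNA binding protein RPA, was the 1 whose groups did not overlap, at 207.4, 245.3 and 223.4 CPM in dsLacZ and at 258.3, 263.1 and 288.1 in those labelled dsFib. Picked after its values were seen, it had a log2 fold change of 0.26 (SE 0.10, edgeR adjusted p = 0.265). PCNA, the sliding clamp gene and a standard E2F target, picked in the same way, had 0.15 (SE 0.11) with groups that overlapped.

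The third list, 21 genes of nucleotide supply, gave the setting for ribonucleotide reductase. Of its 19 tested genes, 0 passed the edgeR, DESeq2 or limma-voom test, the estimates were split into 9 above 0 and 10 below, and their median was -0.006 on the log2 scale. At an unadjusted p of 0.05 edgeR put 2 lower, or 10.5%, and 0 higher, where 8.26% and 7.67% of all genes tested were. For 3 genes, or 15.8%, the groups were separated in the lower direction and for 0 in the higher, where 12.1% and 11.0% of all genes tested were. The 4 with the smallest p were Pfas and Gart, enzymes of purine synthesis, at -0.34 (SE 0.11, edgeR adjusted p = 0.187) and -0.28 (SE 0.11, adjusted p = 0.249), Ts, thymidylate synthase, at -0.19 (SE 0.09, adjusted p = 0.356), and Prat, which starts purine synthesis, at -0.28 (SE 0.15, adjusted p = 0.394). The deoxynucleoside kinase gene dnk, picked for its role after its value was seen, had -0.11 (SE 0.11).

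**Figure D5:**
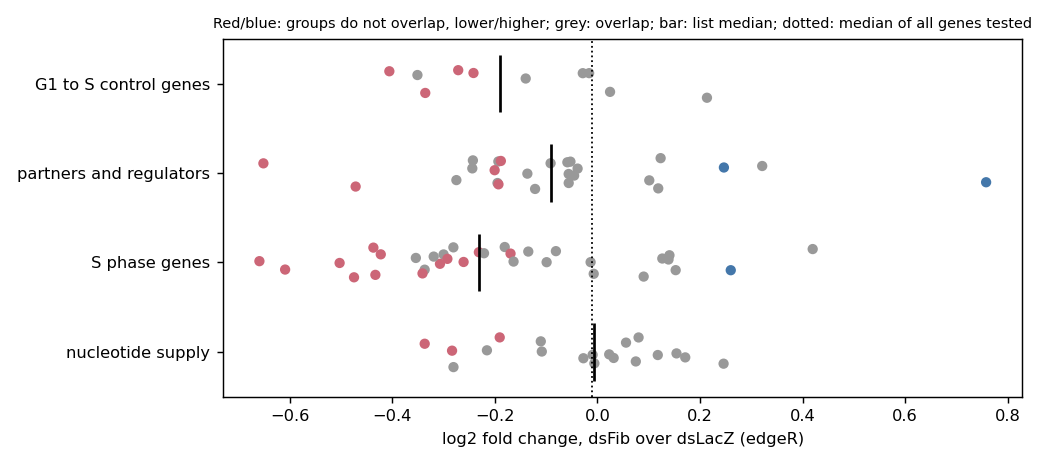
Log2 fold change (horizontal axis; libraries labelled dsFib over dsLacZ) of each tested gene in the 10 members and 3 other lists, with the list median as a bar and the median of all genes tested as a dotted line. The medians of the members, -0.19, and of the S phase genes, -0.23, lie left of the dotted line at -0.01, and that of nucleotide supply, -0.006, lies on it.

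Across the 6 libraries, the genes whose profile was most like that of a member were sought among all genes tested, by the root-mean-square difference of log2 CPM centred on each gene's mean. For CycE the closest were Etl1 at 0.02, mth, a G protein-coupled receptor gene, at 0.04, and grp, the fly Chk1 checkpoint kinase gene, at 0.04, where the median gene differed by 0.28. Their log2 fold changes, which the choice by profile places near that of CycE, were -0.25, -0.23 and -0.26. None passed the edgeR test (adjusted p of 0.303, 0.418 and 0.322). For RnrL they were CG14764 at 0.05, S6k, the kinase gene of ribosomal protein S6, at 0.05, and vir-1 at 0.06, against a median of 0.35. For E2f1, whose own profile varied by 0.07, they were VhaM9.7-b, CG8841 and MTA1-like, at 0.02 to 0.04. With 6 libraries and 8302 genes such matches describe these libraries alone.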

How the data were processed

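Deposited by the authors, per the file headers, were the estimated count of each gene in 6 libraries, with its CPM and its TPM; the file names give CoCo as the counter. Per the submitters' processing notes, cutadapt 3.4, Bowtie2, STAR and dm6 were used; versions otherwise, the annotation, filters and use of strand are not stated there. Estimated counts, rounded to whole numbers, went into edgeR 4.0.16 under R 4.3.3 (filterByExpr, TMM, quasi-likelihood test, group as the single term, Benjamini-Hochberg over 8302 genes, threshold 0.05). CPM in the text is TMM-scaled, from the counts; the deposited CPM served for 1 alternative of the ratios. Intervals are at 95%, from the SE and the fit's degrees of freedom. Ratios used the deposited TPM and a two-sided exact permutation test. Positions are from the Ensembl annotation of BDGP6, which has dm6 coordinates. All 10 members are named, with the 4 genes of smallest p in each list and the 3 nearest profiles of CycE, E2f1 and RnrL, and others where the text says so. Members and lists were chosen with earlier results of these data known. Alternatives were other scalings, filters and tests (DESeq2 1.42.0, limma 3.58.1), a replicate block and leaving out each library. The procedure was also run on simulated data, and no outcome of that run is given here.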

Additional observations from a re-analysis of the deposited data

How the results depend on the processing

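The count of members past the threshold was 0 under 14 of 15 alternatives and 1, Rbf, with voom quality weights. The count over all genes tested, 75, was 31 with total counts alone, 265 with DESeq2, 550 with voom quality weights, 283 with no filter on low counts, and 2 (without dsFib replicate 1 or 3) to 310 (without dsLacZ replicate 2) with a library left out. Replicate numbers did not pair libraries (same-number correlations of deviations -0.04, -0.21 and -0.11, and no dsLacZ library correlated best with its own number); with the replicate block 1 gene and 0 members were called. Members lower with no overlap were 2 with total counts alone, Cdk2 and Cdk4, where 13.1% of all genes tested were so separated. This check was added after seeing the data. With a library left out the count was 4 to 5, but groups that are separated can hardly overlap when a library is dropped. The share of all genes so separated was then 15.1% to 17.99%. CycE, Cdk2, Cdk4, Dp, Rbf and dap stayed below 0 and RnrL above 0 under all 15. The sign of E2f1 turned with total counts alone (-0.014) and voom quality weights (-0.017). With a library left out, E2f1 ran from -0.0088 to 0.074, CycD from -0.060 to 0.062, RnrS from -0.14 to 0.062 and the difference in the log2 ratio of dap to CycE from -0.032 to 0.11. The cause was not tested. Depth limits Cdk2 most, at 132 to 234 counts a library.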
